A study of Mus musculus with 2 samples.

Results

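Ubiquitin and proteasome pathway transcripts were followed in RNA recovered with HP1 alpha from mouse fibroblasts. The genes were taken by symbol from a deposited table of 3134 listed genes. A fixed name pattern took in ubiquitin-activating and ubiquitin-conjugating enzymes, the larger ligase families, cullins with their substrate receptors, the Usp and Otud deubiquitinases and the proteasome subunits. It found 108 genes, or 3.45% of those listed. The pattern itself used no measured value beyond the listing, but it was chosen with earlier results of these data known.

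The study measured RNA bound to HP1 alpha, a heterochromatin protein, by eCLIP, in which ultraviolet light fixes proteins to the RNA they touch before immunoprecipitation, RNase trimming and sequencing. The HP1 alpha library came from NIH3T3 cells, an immortalised mouse fibroblast line, precipitated with an antibody to HP1 alpha. The second library came from the same line, is labelled as having no antibody, and is called the input. The deposited count columns are headed MEF, the usual short form for mouse embryonic fibroblasts, while the labels say NIH3T3, and which holds was not settled here. The labels name no genetic change or drug in either. Each group holds 1 library, so no difference had a replicate check and no p-value was computed. Both libraries carry the same protocol text, which does not say at which step the input was taken.

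Ubiquitin is a small protein that is attached to other proteins as a signal. An E1 enzyme activates it, an E2 enzyme carries it, and an E3 ligase places it on the substrate. Chains of ubiquitin commonly send a protein to the proteasome, a barrel-shaped protease capped by a regulatory particle, while deubiquitinases cut the chains off again. In fibroblasts, as in other cells, the pathway controls protein turnover and the cell cycle, and ubiquitin on histones also marks chromatin.

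The listed HP1 alpha counts summed to 513965 and the listed input counts to 830031, with per-gene medians of 107 for HP1 alpha and 186 for input. Every ratio below is a gene's fraction of the listed HP1 alpha counts over its fraction of the listed input counts. Its exact 95% interval covers counting error only. A gene was called higher or lower when its log2 ratio, with 0.5 counts added to each library, passed 2-fold and the interval excluded 1. Of 8 fibroblast markers 7 were listed, with 231 to 1937 HP1 alpha counts and 446 to 3910 input counts, while none of 9 epithelial, endothelial and immune markers was listed. A gene is listed when its larger count reaches 100. All 108 genes had at least 101 input counts, so each would have been listed on its input count alone. In 68 of the 108 the HP1 alpha count was under 100, so only the input count reached the limit. This held for 1433 of all 3134 listed genes. In 15 of the 108 the HP1 alpha count was under 62, which with this limit fixes a ratio below 1.

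Most of the 108 genes took a slightly smaller share of the listed HP1 alpha counts than of the listed input counts, and a few stood well apart. Their ratios ran from 0.520 for Fbxl5 to 3.03 for Asb3, with a median log2 ratio of -0.25, against -0.20 for the 3026 other listed genes and -0.21 for all. Asb3 and Ube2e2 were called higher and none was called lower, against 2.36% of all listed genes called higher and 0.83% called lower. The called members, 1.85% of the 108, were thus no larger a share than among all genes. At 1.5-fold, 3 were higher (Fbxl17 besides these), against 7.63% of all genes, and 7 were lower (Fbxl5, Psmc3, Psmb6, Psme1, Otud7b, Usp1 and Rnf187), against 12.3%. All of these 7 but Otud7b had HP1 alpha counts under 62.

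The counts of genes on either side of 1 were less even, and how far the listing limit bears on this was not tested. A ratio above 1 was found for 16 of the 108 genes, or 14.8%, against 952 of the 3026 others and 30.9% of all listed genes, and one below 1 for 92, against 69.1% of all. An interval wholly above 1 was found for 5 (Asb3, Ube2e2, Fbxl17, Rnf217 and Rnf213), where the share among all genes was 15.4%. An interval wholly below 1 was found for 34, or 31.5%, close to the 32.6% among all genes. These directions depend on the scaling. TMM factors moved every log2 ratio up by 0.20, which gave 45 of 108 ratios above 1 (41.7%, against 48.7% of all listed genes), 12 intervals above 1 (23.3% of all) and 6 below 1 (13.7% of all). With DESeq2 size factors, a shift of 0.21, 47 of 108 were above 1 (43.5%, against 50.0% of all). The place of a gene relative to the median of all genes does not change with such a shift, and 47 of the 108 lay above that median and 61 below it.

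**Figure D1:**
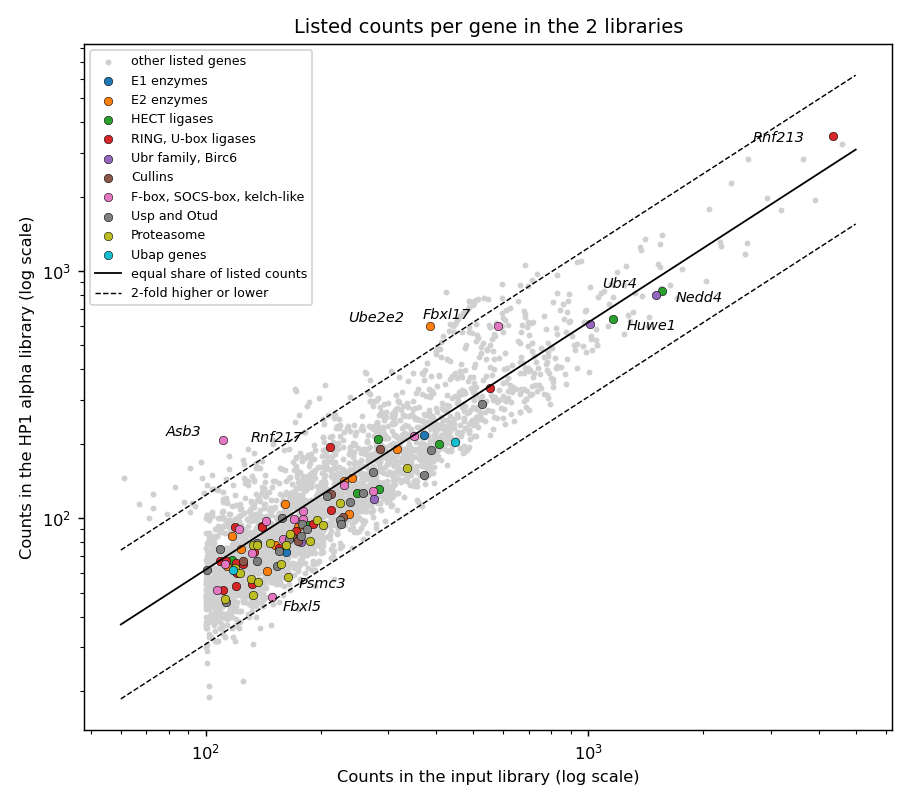
HP1 alpha counts (y axis) against input counts (x axis) of each listed gene, both on log scales, with ubiquitin and proteasome genes coloured by role and other listed genes in grey. The solid line marks equal shares and the dashed lines a 2-fold difference; Asb3 and Ube2e2 lie above the upper dashed line, and Rnf213 has the most counts of the coloured genes.

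The 2 E1 genes had ratios below 1. Uba1, the main ubiquitin-activating enzyme, had 216 HP1 alpha and 371 input counts, a ratio of 0.940 (0.791 to 1.11). Uba2, a subunit of the activating enzyme for SUMO, had 73 HP1 alpha and 162 input counts and a ratio of 0.728 (0.544 to 0.965). Uba1 lay above the median of all genes and Uba2 below it.

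Among the 12 E2 genes, 1 was called higher, against 2.36% of all genes, and 3 had ratios above 1, against 30.9%. The median log2 ratio was -0.036, and 8 of the 12 lay above the median of all genes. Ube2e2, a ubiquitin-conjugating enzyme of the Ube2e subfamily, had 601 HP1 alpha and 385 input counts. Its ratio of 2.52 (2.21 to 2.87) ranked 13 of all 3134 genes. The gene (ENSMUSG00000058317.7) spans chr14:18573563-18894284 in GRCm38.p6, introns included, and the 2 annotated genes that overlap it, Gm22499 and Gm15916, are not listed. In the authors' deposited table its fold is 2.59.

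Ube2e3, the other listed member of that subfamily, had 85 HP1 alpha and 117 input counts and a ratio of 1.17 (0.877 to 1.56). The ratio of Ube2e2 was 2.15 times that of Ube2e3 (1.56 to 2.96, exact conditional interval). Their spans differed as well, 321 kb for Ube2e2 and 60.6 kb for Ube2e3. How reads common to these related genes were assigned is not given in the sources used here.

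Most of the class lay closer to 1. Ube2l3, which passes ubiquitin to HECT and RING-between-RING ligases, had 114 HP1 alpha and 161 input counts and a ratio of 1.14 (0.892 to 1.46). Ube2h had 0.976 (0.811 to 1.17) and Ube2k, which builds chains that target proteins to the proteasome, had 0.972 (0.785 to 1.20). Ube2b, which works in DNA damage tolerance, had 104 HP1 alpha and 237 input counts and a ratio of 0.709 (0.557 to 0.896). The lowest ratio of the class was that of Ube2c, the E2 of the anaphase-promoting complex, with 61 HP1 alpha and 145 input counts and 0.679 (0.495 to 0.922). The other E2 genes, among them Ube2z and Ube2r2, had ratios between 0.829 and 0.990, each with an interval that included 1.

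**Figure D2:**
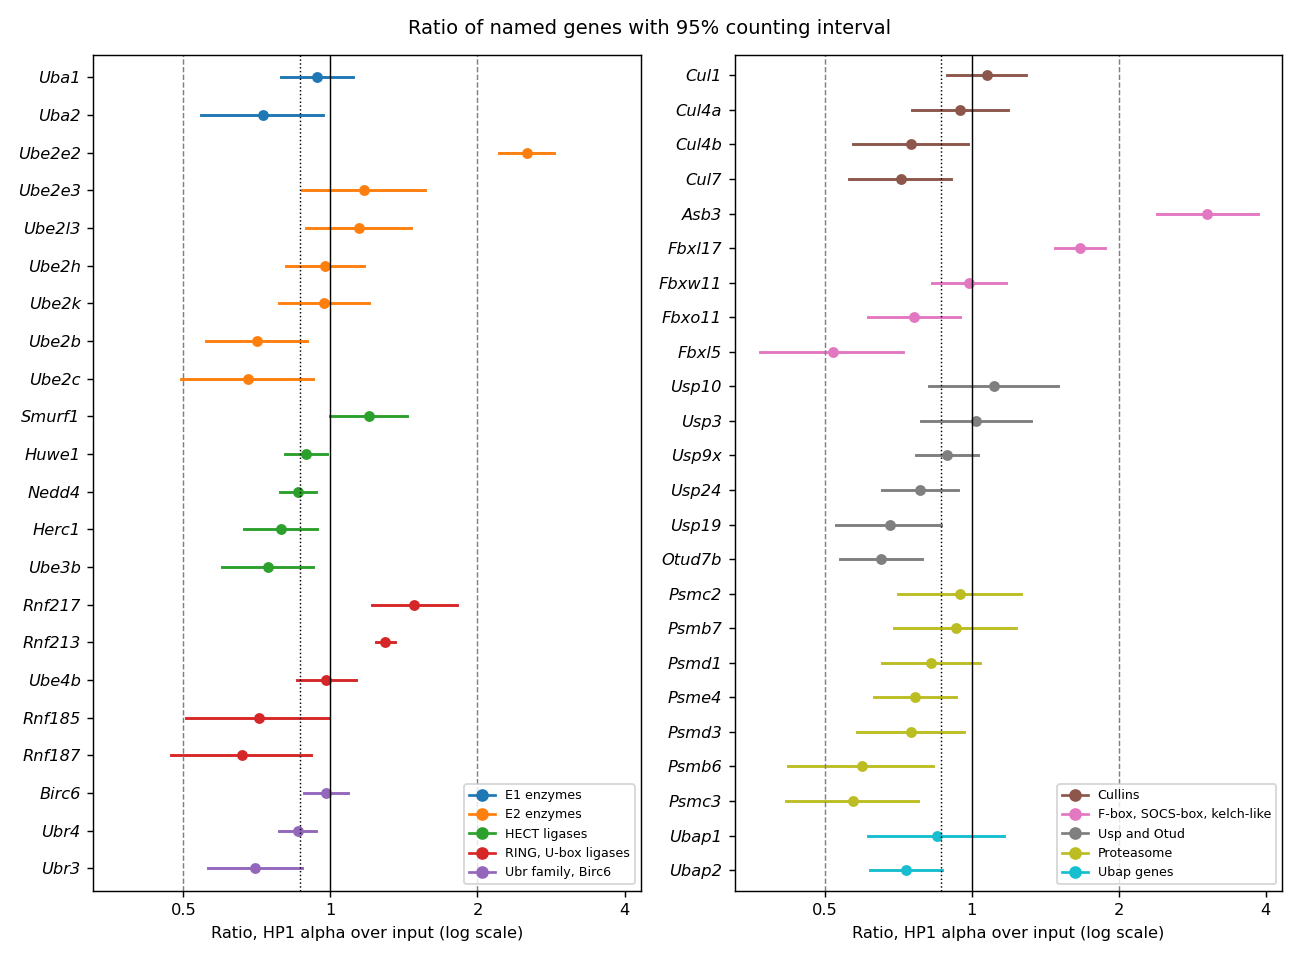
Ratio of HP1 alpha over input (x axis, log scale) for the ubiquitin and proteasome genes chosen by the naming rule, with 95% counting intervals as bars and roles in colour. The solid line is a ratio of 1, the dotted line the median of all listed genes (0.865) and the dashed lines 2-fold; the intervals of Asb3 and Ube2e2 lie wholly above 2, and that of Fbxl5 reaches from 0.368 to 0.725.

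HECT ligases, which take ubiquitin onto their own catalytic cysteine before passing it on, gave 8 genes. Of these, 7 had ratios below 1, against 69.1% of all genes, and 4 had intervals below 1, against 32.6%. Nedd4, which acts largely on membrane proteins, had 827 HP1 alpha and 1555 input counts, a ratio of 0.859 (0.788 to 0.935). Huwe1, a giant ligase, had 639 HP1 alpha and 1158 input counts and 0.891 (0.808 to 0.982). Herc1, also a giant protein, had 0.792 (0.665 to 0.940) from 199 HP1 alpha and 406 input counts, and Ube3b had 0.745 (0.601 to 0.919) from 131 HP1 alpha and 284 input counts. With TMM or DESeq2 factors none of the 8 kept an interval below 1, against 13.7% or 12.4% of all genes. With these factors 3 of the 8 had ratios above 1, against 48.7% or 50.0% of all genes.

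Smurf1, a ligase for Smad proteins of the TGF-beta and BMP pathways, was the HECT gene with a ratio above 1, with 209 HP1 alpha and 282 input counts and 1.20 (0.996 to 1.44). Its close relative Smurf2 had 127 HP1 alpha and 248 input counts and 0.827 (0.662 to 1.03), so that the ratio of Smurf1 was 1.45 times that of Smurf2 (1.08 to 1.93). Smurf2 falls outside the naming rule and was picked after the values were seen. Of the remaining HECT genes, Itch had 0.821 and Wwp1 had 0.939.

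The 20 RING and U-box ligases, which bring the loaded E2 to the substrate, included the most counted gene of the pathway. Rnf213, a giant ligase with an ATPase ring that is induced by interferon, held 3507 HP1 alpha and 4371 input counts. That was 19.6% of the HP1 alpha counts and 14.7% of the input counts of all 108 genes. Its ratio was 1.30 (1.24 to 1.35). Its weight shows in sums over the pathway. The 108 genes held 3.49% (3.44 to 3.54) of the listed HP1 alpha counts and 3.59% (3.55 to 3.63) of the listed input counts, a summed ratio of 0.971 (0.953 to 0.989). Without Rnf213 the summed ratio was 0.915 (0.896 to 0.934).

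Rnf217, a RING-between-RING ligase, had 194 HP1 alpha and 211 input counts and the highest ratio of this class, 1.48 (1.22 to 1.81). Ube4b, a U-box protein that lengthens ubiquitin chains, had 336 HP1 alpha and 553 input counts and 0.981 (0.854 to 1.13). At the low end, Rnf187 had 54 HP1 alpha and 132 input counts and 0.661 (0.472 to 0.913), and Rnf185, a ligase of the endoplasmic reticulum, had 53 HP1 alpha and 120 input counts and 0.713 (0.506 to 0.993). In 5 of the 20 genes (Rnf187, Rnf185, Rnf2, Rnf11 and March5) the HP1 alpha count was under 62, where listing fixes a ratio below 1. Besides Rnf213, Rnf217, Ube4b, Rnf187 and Rnf185, the class held 15 genes, with ratios from 0.742 for Rnf2 to 1.25 for March8. These 15 had 51 to 108 HP1 alpha counts, and none of their intervals excluded 1. Of the 20 genes, 10 lay above the median of all genes and 10 below.

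Some of these enzymes act on histones, and their genes gave no call. Rnf2, the ligase that places ubiquitin on histone H2A in Polycomb complexes, had 51 HP1 alpha and 111 input counts and 0.742 (0.522 to 1.04). Its HP1 alpha count lies under 62, where listing fixes a ratio below 1. Rnf20, which acts on histone H2B, had 0.840 (0.612 to 1.14), and Usp22, the deubiquitinase of the SAGA coactivator, had 0.787 (0.625 to 0.987). These 3 were picked for their role after the values were seen.

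The Ubr family recognises destabilising ends of proteins, and Birc6 is a giant inhibitor of apoptosis that carries an E2 domain. All 4 genes had ratios below 1, against 69.1% of all genes. Ubr4 had 799 HP1 alpha and 1505 input counts, a ratio of 0.857 (0.786 to 0.935). Ubr3 had 120 HP1 alpha and 276 input counts and 0.702 (0.562 to 0.873), the lowest of the group, and Ubr1 had 0.730 (0.553 to 0.956). Birc6 had 612 HP1 alpha and 1009 input counts and a ratio of 0.980 (0.885 to 1.08), and turned above 1 under TMM, DESeq2 and the authors' scaling.

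Cullins are scaffolds that join a RING protein to interchangeable substrate receptors, and 6 were listed, none called. Cul1, the scaffold of the F-box ligases, had 190 HP1 alpha and 286 input counts and 1.07 (0.888 to 1.29). Cul4a had 125 HP1 alpha and 213 input counts and 0.948 (0.754 to 1.19), and its paralogue Cul4b had 81 HP1 alpha and 174 input counts and 0.752 (0.570 to 0.984). The ratio of Cul4a over that of Cul4b was 1.26 (0.881 to 1.81), an interval that includes 1. Cul7 had the lowest ratio, 0.715 (0.560 to 0.908), from 101 HP1 alpha and 228 input counts, and Cul3 and Cul5 had 0.807 and 0.866.

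The substrate receptors of cullin ligases held both ends of the whole pathway. The class had 12 F-box genes, 2 kelch-like genes and Asb3, and 11 of the 15 lay above the median of all genes. Asb3, an ankyrin-repeat protein with the SOCS box that binds cullin ligases, had 208 HP1 alpha and 111 input counts. Its ratio of 3.03 (2.39 to 3.85) ranked 5 of all listed genes, and in the authors' deposited table its fold is 3.11. The gene (ENSMUSG00000020305.9) spans chr11:30954392-31102704 in GRCm38.p6. No listed gene overlaps it, but the unlisted genes Chac2 and Gm12102 do, and whether reads from them were counted for Asb3 was not tested.

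Fbxl17, an F-box receptor that removes wrongly paired BTB proteins, had 599 HP1 alpha and 581 input counts, a ratio of 1.66 (1.48 to 1.87). It spans chr17:63045949-63504184, the longest of the 108 genes at 458 kb, and 6 annotated genes overlap it. At the other end, Fbxl5, the iron-sensing receptor that targets iron regulatory protein, had 48 HP1 alpha and 149 input counts and 0.520 (0.368 to 0.725). It spans chr5:43744618-43782149, and no annotated gene overlaps it. Its log2 ratio of -0.93 stayed just inside 2-fold, so it was not called, and its HP1 alpha count lies under 62. The ratio of Fbxl17 was 3.20 times that of Fbxl5 (2.25 to 4.62). This pair and the other pairs set against each other were chosen after their values were seen. For 4 further pairs the interval of the ratio of ratios included 1, with 1.15 (0.933 to 1.41) for Rnf217 over Rnf213, 1.10 (0.786 to 1.56) for Ube4b over Ube4a, 0.924 (0.675 to 1.27) for Otud7b over Otud4 and 1.03 (0.759 to 1.40) for Fbxw11 over Fbxw7. For Fbxl17 over Fbxl20 the interval was 1.48 to 2.71.

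Between these lay Fbxw11, a receptor of the beta-TrCP type, with 214 HP1 alpha and 350 input counts and 0.987 (0.829 to 1.17), and Fbxo11 with 129 HP1 alpha and 273 input counts and 0.763 (0.614 to 0.944). The other F-box genes had ratios from 0.770 for Fbxo18 to 1.19 for Fbxo10. The kelch-like genes Klhl22 and Klhl9 had 0.888 and 0.940. The intervals of these other F-box genes and of the kelch-like genes included 1. Fbxo18, now named Fbh1, is better known as a DNA helicase.

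Of the 21 genes that the pattern took for deubiquitinases, 19 had ratios below 1, against 69.1% of all genes. Whatever the scaling, 14 lay below the median of all genes. No gene was called, and 8 had intervals below 1, or 38.1%, near the 32.6% of all genes. With TMM factors 2 had intervals below 1 (13.7% of all genes) and with DESeq2 factors 1 (12.4% of all). With either, 14 had ratios below 1, against 1609 (TMM) and 1567 (DESeq2) of all 3134 genes. Usp9x, an X-linked enzyme with many substrates, had 290 HP1 alpha and 526 input counts, a ratio of 0.890 (0.769 to 1.03). Usp24 had 189 HP1 alpha and 389 input counts and 0.785 (0.656 to 0.936). Otud7b, which prefers chains built by the anaphase-promoting complex, was lowest with 150 HP1 alpha and 371 input counts and 0.653 (0.537 to 0.791). Usp19 had 95 HP1 alpha and 226 input counts and 0.679 (0.528 to 0.866).

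The highest ratios of this class were small. Usp10 had 75 HP1 alpha and 109 input counts and 1.11, with an interval that includes 1, and Usp3 had 100 HP1 alpha and 158 input counts and 1.02 (0.788 to 1.32). The median log2 ratio was -0.33, against -0.21 for all genes. Usp6nl, at 0.862, shares the name but encodes a GTPase-activating protein for Rab proteins. Usp49 and Usp37, at 0.803 and 0.776, each overlap another listed gene, and are the only 2 of the 108 that do.

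The 18 proteasome genes had ratios between 0.571 and 0.947 and the lowest median log2 ratio of any class of 3 or more genes, -0.37. All 18 were below 1, against 69.1% of all genes, and 9 had intervals below 1, against 32.6%, with none called. With TMM or DESeq2 factors 2 intervals lay below 1, those of Psmb6 and Psmc3, or 11.1%, against 13.7% or 12.4% of all genes. With TMM factors 16 of the 18 were below 1, against 1609 of all 3134 genes. With DESeq2 factors 15 were below 1, the number that lay below the median of all genes, against 1567 of all 3134. Summed over the class, 1400 HP1 alpha and 2964 input counts gave 0.763 (0.715 to 0.813). In 6 of the 18 (Psma7, Psmb6, Psmc3, Psmd8, Psmd12 and Psme1) the HP1 alpha count was under 62, where listing fixes a ratio below 1. Only the input count reached the listing limit of 100 in 16 of the 18. The proteasome genes were also short, with a median span of 12.9 kb. Among other listed genes under 20 kb, 94.6% had ratios below 1 and 56.6% had intervals below 1.

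Within the proteasome, the 6 listed core subunits had a median ratio of 0.846 and the 8 non-ATPase subunits of the regulatory particle 0.765. Psmc3, an ATPase of that particle, was lowest with 58 HP1 alpha and 164 input counts, a ratio of 0.571 (0.416 to 0.775). Psmc2, another of its ATPases, was highest with 78 HP1 alpha and 133 input counts and 0.947 (0.707 to 1.26). Of the catalytic subunits, Psmb6 had 49 HP1 alpha and 133 input counts and 0.595 (0.420 to 0.831), while Psmb7 had 78 HP1 alpha and 136 input counts and 0.926 (0.692 to 1.23). Psmd1 and Psmd3, both of the regulatory particle, had 0.825 (0.653 to 1.04) and 0.752 (0.582 to 0.965). Psme4, an alternative cap of the core, had the most counts, 159 HP1 alpha and 335 input, and 0.767 (0.631 to 0.928).

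The pattern also took in Ubap1, a subunit of the membrane-sorting complex ESCRT-I, with 62 HP1 alpha and 118 input counts and 0.849 (0.614 to 1.16). Ubap2, a ubiquitin-binding protein, had 204 HP1 alpha and 449 input counts and 0.734 (0.619 to 0.868).

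**Figure D3:**
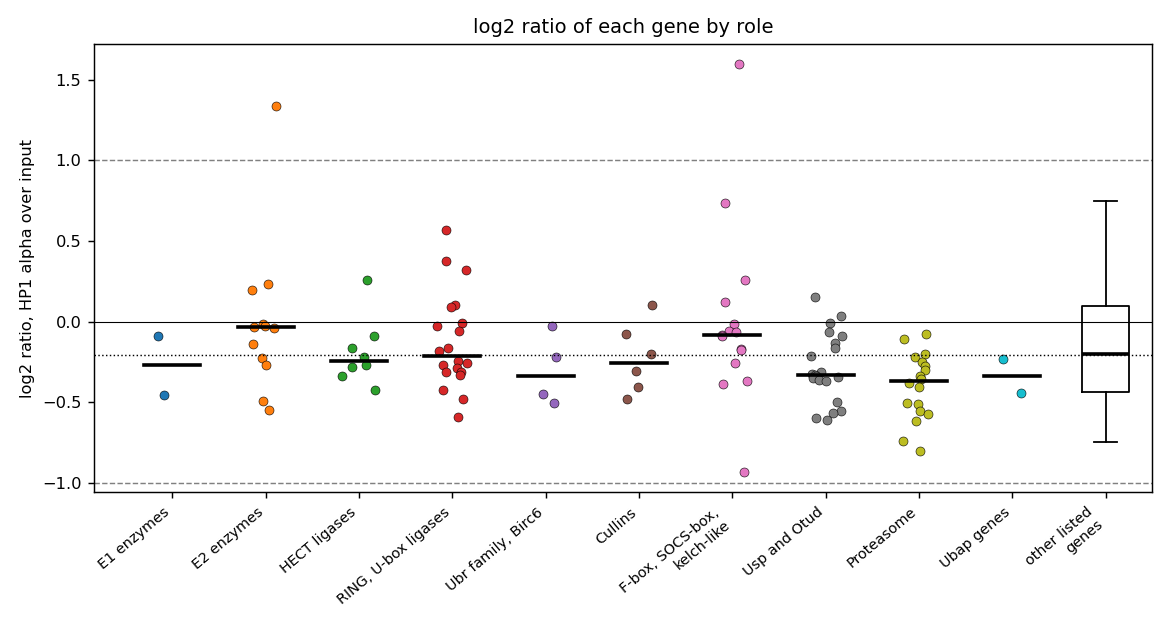
log2 ratio of HP1 alpha over input (y axis) for each of the 108 genes by role, with the median of each role as a bar and, at the right, the other listed genes as a box from quartile to quartile with whiskers at the 5th and 95th percentiles. The dotted line is the median of all listed genes (-0.21) and the dashed lines are 2-fold; proteasome genes all lie below 0, while Asb3 and Ube2e2 lie above 1.

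Gene span went with the ratio. Over the listed genes other than the 108 the log2 ratio was higher in longer genes (Spearman's rho 0.61 across 2981 genes), and across the 108 genes rho was 0.47 (Pearson's r with log10 span 0.50). Without Asb3 and Ube2e2 rho was 0.44. These are correlations across genes of the same 2 libraries, and genes are not independent replicates. The 108 genes had a median span of 48.5 kb, near the 48.2 kb of the others, but only 2 of them, or 1.85%, reached 200 kb, against 9.93% of the others with a known span. Proteasome genes were short, with a median of 12.9 kb.

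The shares of pathway genes and other genes lay furthest apart among long genes, a difference that was described and not tested. Between 100 and 200 kb, 3 of 20 pathway genes had a ratio above 1, against 290 of 463 other listed genes (62.6%). Spans were not matched within this range, with a median of 110 kb for the pathway genes and 131 kb for the others. What this adds to the difference was not tested. With TMM or DESeq2 factors the shares in this range were 55.0% of pathway genes against 80.1% or 80.8% of the others. With the authors' constant they were 30.0% against 66.5%. Set against the median of the 200 listed genes nearest in span, 4 of the 20 lay above it, against 234 of the 463 others (50.5%). Intervals lay wholly below that median for 9 of the 20, against 19.4% of the others. The 17 genes with ratios below 1 included giant ligases (Huwe1, Herc1, Ubr4 and Birc6), the other Ubr genes, Psme4 and the deubiquitinases Usp9x, Usp24, Usp32 and Usp37. In shorter genes the shares lay closer together. Under 20 kb 0 of 26 pathway genes and 36 of 668 others had ratios above 1, and between 50 and 100 kb the numbers were 9 of 31 and 221 of 684.

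**Figure D4:**
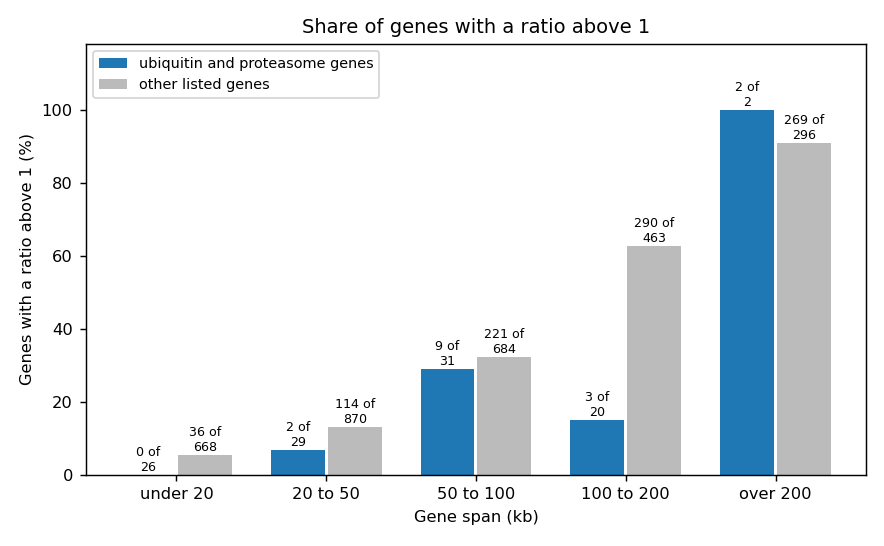
Percentage of genes with a ratio above 1 (y axis) by gene span in kb (x axis), for ubiquitin and proteasome genes (left bars) and other listed genes (right bars), with the numbers of genes above each bar. The bars part most at 100 to 200 kb, at 3 of 20 and 290 of 463, where the median spans were 110 kb and 131 kb. The last pair rests on 2 pathway genes.

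Each log2 ratio was also set against the median of the 200 listed genes nearest in span. Asb3 stayed 1.44 above that median, at percentile 99.0 of those genes, and was still called higher, as were 1.23% of all listed genes. Ube2e2 lay 0.84 above it, at percentile 98.5, and Fbxl17 0.21 above it, both short of 2-fold. Fbxl5 lay 0.64 below it, a difference of -0.64, at percentile 0.5. None of the 108 genes was called lower, against 0.13% of all listed genes. With this adjustment 52 of the 108 genes lay above genes of like span and 56 below, and the median difference was -0.011.

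By role, all 4 genes of the Ubr group lay below genes of like span, with a median difference of -0.40 and intervals below 1 in each after the adjustment. Of the 8 HECT genes 7 lay below, with a median of -0.18, led by Herc1 at -0.55. Deubiquitinases lay below in 16 of 21 cases, with a median of -0.11. E2 genes lay above in 9 of 12 cases (median 0.19), RING and U-box ligases in 15 of 20 (0.058) and receptors in 9 of 15 (0.16). For the proteasome, 8 of 18 lay above and the median was -0.075. Over all 3089 listed genes with a span, the median difference was 0.0047. Of these, 50.1% lay above genes of like span, and 11.8% had intervals below 1 after the adjustment.

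**Figure D5:**
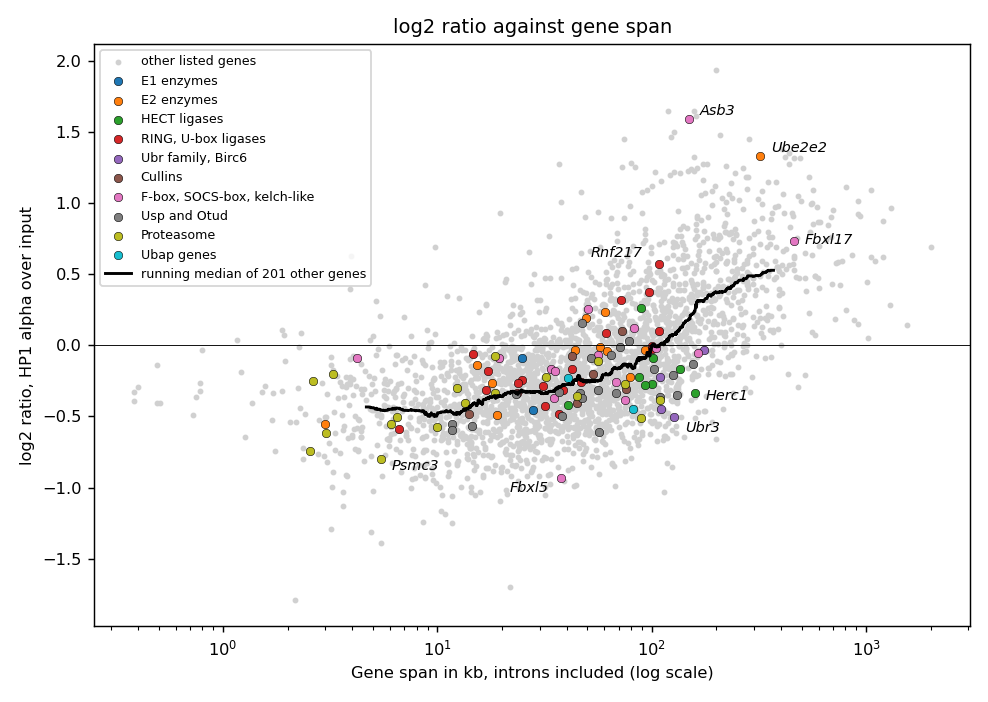
log2 ratio of HP1 alpha over input (y axis) against gene span in kb on a log scale (x axis), for ubiquitin and proteasome genes by role and other listed genes in grey, with a running median of the other genes. Asb3 and Ube2e2 lie above the running median, Fbxl5, Herc1 and Ubr3 below it.

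Levels per length were compared as CPM of listed counts per kb of gene span. On this scale the 108 genes had a median HP1 alpha level of 3.99 and a median input level of 4.62. Psmb4, a core subunit of the proteasome, had a level of 63.5 for HP1 alpha and 75.9 for input, the highest input level of the 108. Rnf213 had 70.0 for HP1 alpha, the highest HP1 alpha level, and 54.0 for input. Asb3 had 2.73 for HP1 alpha and 0.902 for input, the lowest input level. Psmb4 was picked here after its values were seen. The part of a gene over which reads were counted is not given in the sources used here, so short genes with few introns can appear denser than long ones.

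Other parts of the pathway were taken from a written list of 260 symbols, of which 97 were listed. None was called higher or lower, although Atg7 and Spopl were called higher with TMM and DESeq2 factors and Spopl also against genes of like span. Their median log2 ratio was -0.35, below the -0.21 of all genes. Ratios above 1 were found for 15 of the 97, or 15.5%, against 30.9% of all listed genes. With TMM or DESeq2 factors they were found for 29, or 29.9%, against 48.7% or 50.0% of all. Intervals above 1 were found for 9, or 9.28%, against 15.4% of all, and below 1 for 34, or 35.1%, against 32.6%. With TMM factors 12 lay above and 8 below, and with DESeq2 factors 12 and 7. In 30 of the 97 the HP1 alpha count was under 62, where listing fixes a ratio below 1. The median against genes of like span was -0.040.

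Some single genes of this list stood apart from its median. Atg7, the E1-like enzyme of autophagy, had 130 HP1 alpha and 108 input counts, a ratio of 1.94 (1.49 to 2.53). Spopl, a receptor of the cullin 3 ligase, had 128 HP1 alpha and 111 input counts and 1.86 (1.43 to 2.42), and lay 1.08 above genes of like span, at percentile 100.0. Its paralogue Spop had 100 HP1 alpha and 217 input counts and 0.744 (0.581 to 0.947). The ratio of Spopl was 2.50 times that of Spop (1.74 to 3.60), a pair chosen after the values were seen. Pdzrn3, a RING ligase, had 658 HP1 alpha and 768 input counts and 1.38 (1.24 to 1.54).

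The lowest of the list was Wdr26, a subunit of the GID ligase, with 139 HP1 alpha and 396 input counts and 0.567 (0.464 to 0.689). Cdc16 of the anaphase-promoting complex had 55 HP1 alpha and 156 input counts and 0.569 (0.411 to 0.779), against 0.890 (0.764 to 1.04) for Anapc1 of the same complex, and Btbd2 had 0.571 (0.390 to 0.821). Sumo3, a ubiquitin-like modifier, had 71 HP1 alpha and 157 input counts and 0.730 (0.544 to 0.973). Among deubiquitinases outside the pattern, Bap1, which acts on histone H2A, had 0.675 (0.492 to 0.916) and Vcpip1 had 1.02 (0.752 to 1.37). The proteasome shuttle Ubqln2 had 0.648 (0.473 to 0.878), the autophagy receptor Nbr1 had 1.02 (0.824 to 1.26), and the SUMO ligase Pias4 had 0.633 (0.428 to 0.921). Cdc16, Btbd2, Bap1, Ubqln2 and Pias4 had HP1 alpha counts under 62, with the limit from listing given above.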

How the data were processed

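RNA from 1 HP1 alpha eCLIP library and 1 input library of NIH3T3 cells was analysed. The deposited table holds whole-number read counts per gene and a ratio (fold) that the authors formed per the file headers with total mapped reads. That ratio is the count ratio times 1.66. Per the submitters' processing notes, STAR 2.6.0c, featureCounts and GRCm38 were used, with no settings. The columns are headed MEF_HP1 and MEF_mock, where the labels give NIH3T3. They were assigned to the HP1 alpha and the no-antibody sample by name, and 0 other sample columns were present. The listed counts are part of each library, 513965 and 830031, so they are not sequencing depths. PCR copies cannot be told apart, and intervals cover counting error only.

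Counts were divided by listed totals, with exact Clopper-Pearson 95% intervals (scipy 1.17.1) and a minimum sum of 20 counts, which removed no gene. Ratios of ratios used the exact conditional odds ratio. Spans came from RefSeq GRCm38.p6, where 104 of the 108 genes matched by symbol and 4 by a synonym. Alternatives were TMM (edgeR 4.0.16), DESeq2 1.42.0 size factors, the authors' constant, other filters, pseudocount and fold, genes of like span, and genes without listed overlap.

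In each role the named genes were the 3 with most counts, the 2 highest and the 2 lowest by interval bound, with every called gene and every listed Ube2e gene. From the list of other pathway genes they were the highest and the lowest of each set. Genes named outside this rule are there as the rest of a class, for an overlap or for a stated reason. The members and lists were chosen with earlier results of these data known. Some genes are not reported here by name.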

Additional observations from a re-analysis of the deposited data

How the results depend on the processing

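No paired analysis was possible because there was 1 library per group. Asb3 and Ube2e2 stayed called under all scalings, without a filter, with 5 pseudocounts and without listed overlaps. The count of 2 higher genes became 1 at a minimum sum of 400 counts (Ube2e2) and 1 relative to genes of like span (Asb3). In these settings 4.52% and 1.23% of all genes were called higher. At 1.5-fold 3 were higher, against 7.63% of all genes, and 7 were lower, against 12.3%. Intervals above 1 numbered 12 with TMM factors, 12 with DESeq2 factors and 10 by span, and intervals below 1 numbered 6, 4 and 14 in that order, or 10 at a minimum of 400 counts, which leaves 23 genes. By span the shares were 9.26% above and 13.0% below, against 15.4% and 11.8% of all genes. With TMM factors they were 11.1% and 5.56%, against 23.3% and 13.7% of all genes. With DESeq2 factors they were 11.1% and 3.70%, against 23.9% and 12.4%. Ratios above 1 numbered 45, 47 and 52 in that order and 6 at 400 counts, where the shares of all genes were 48.7%, 50.0%, 50.1% and 44.6%. In the range from 100 to 200 kb they numbered 11 with TMM and 11 with DESeq2 factors, 6 with the authors' constant and 1 at 400 counts, where 10 such genes are left, and these counts were chosen after seeing the data. The median of the 108 genes was -0.053 with TMM, -0.041 with DESeq2, -0.21 with the authors' constant, -0.13 at 400 counts, -0.22 with 5 pseudocounts and -0.011 by span. That of the other pathway genes was -0.15, -0.14, -0.31, -0.17, -0.31 and -0.040 in the same order. With TMM the medians were 0.16 (E2), -0.048 (HECT), -0.016 (RING and U-box), -0.14 (Ubr group), -0.056 (cullins), 0.11 (receptors), -0.14 (deubiquitinases) and -0.17 (proteasome). With DESeq2 factors they were 0.17, -0.036, -0.0042, -0.13, -0.045, 0.12, -0.12 and -0.16. By span they were 0.19 for E2 genes, 0.058 for RING and U-box ligases, -0.0073 for cullins, 0.16 for receptors, -0.11 for deubiquitinases and -0.075 for the proteasome. At 400 counts the only RING and U-box ligases left were Rnf213, Rnf217 and Ube4b. Their median of 0.37 is the value of Rnf213 itself. The deubiquitinases left were Usp9x, Usp24, Usp32 and Otud7b, with a median of -0.26. Classes left with under 3 genes gave no value. Each scaling shifts all log2 ratios equally, and the minimum of 400 counts changes which genes a median covers. The cause of the other shifts was not tested. Among the other pathway genes the count of 0 higher became 2 with TMM and 2 with DESeq2 factors (Atg7 and Spopl) and 1 by span (Spopl). Of the 60 named genes only Asb3 and Ube2e2 were called, so only these could reverse a call, and neither did. TMM and DESeq2 factors shift ratios upward and could not have reversed them. Of the uncalled named genes, 13 turned above 1 with TMM and 13 with DESeq2 factors. Depth limits each gene: the upper over the lower bound of an interval was 1.71 at the median of the 108 genes.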

Other observations

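Some pathway genes outside the naming rule differed from genes of their own kind or length, and were picked after their values were seen. Dcaf6 and Dcaf8 are both substrate receptors of the cullin 4 ligase. Dcaf6 had 316 HP1 alpha and 314 input counts, a ratio of 1.63 (1.39 to 1.91), and its ratio was 2.35 times that of Dcaf8 (1.77 to 3.15). Faf1, which links ubiquitinated proteins to the segregase Vcp, had 240 HP1 alpha and 488 input counts and 0.794 (0.678 to 0.929). Faf1 spans 287 kb and lay at percentile 1.0 of genes of like span, with a difference of -0.79 from their median. The large ligases Trip12 and Mycbp2 also lay below genes of like span, with differences of -0.46 and -0.47. None of these genes was called higher or lower.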
